A study of Mus musculus with 6 samples.

Results

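Autophagy and lysosome genes were examined in bone marrow B-cells by their open chromatin. The group holds 40 genes, from the kinase complex that starts autophagy to the enzymes inside the lysosome. A peak of open chromatin was counted with a gene when it overlapped the gene body or, overlapping no gene, had that gene as its nearest protein-coding gene within 100 kb. By this rule 275 of the 97124 deposited peaks belonged to the group. All 40 genes had a peak, with 1 to 30 peaks a gene and a median of 4. Assignment by nearness says where a peak lies, not which gene it acts on.

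The study used ATAC-seq, an assay in which Tn5 transposase places sequencing adapters wherever chromatin is open. Quiescent cells were those with high H2B-GFP (3 samples), and proliferating cells were those with low H2B-GFP (3 samples). H2B-GFP is a histone fused to green fluorescent protein, which is thinned out as cells divide. Both groups were primary bone marrow B-cells of mice called PEtg in the labels, and both therefore carry whatever that name stands for. What the transgene is, what drives it, the age of the mice and whether each sample is a separate mouse are not stated in the labels used here. Adjusted p-values therefore speak only to the variation among these 6 samples, which may be technical. The design text poses a single contrast, quiescent against proliferating, and the series concerns pre-leukaemic stem cells and their quiescence.

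Autophagy delivers portions of cytoplasm to the lysosome. The ULK kinase complex starts it, a class III phosphatidylinositol 3-kinase complex marks the membrane where the autophagosome grows, and a pair of ubiquitin-like conjugation systems attaches ATG8 proteins such as LC3 to that membrane. Cargo receptors tie the load to ATG8 proteins, and lysosomal hydrolases break it down after fusion. TFEB, MITF and TFEC, transcription factors of the MiT family, bind E-box DNA and switch on many of these genes when nutrients are short. In B-lineage cells autophagy is known for its part in the survival of memory B-cells and plasma cells, and cathepsin S for its part in antigen presentation.

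The E-box that MiT factors bind was looked for in the promoters of the group. The motif CACGTG, which reads the same on both strands, was found in 8 of 37 promoter windows of 32 of the genes (21.6%), against 7.15% of all 32851 windows in the same RefSeq table. A window runs from 250 bases before to 50 bases after a listed gene start. The longer form TCACGTGA, which also reads the same on both strands and always holds CACGTG, was found in 3 of the 37 windows (8.11%), against 0.974% of all windows. The 8 windows belonged to Atg14, Atg3, Atg5, Atg7, Ctsd, Ctsl, Lamp1 and Mcoln1, and those with the longer form to Atg3, Ctsd and Mcoln1. No Atg7 peak lay within 1 kb of the listed Atg7 start, and the peak at an end of that gene lay 27047 bp from it. A match is a stretch of letters and not a measured binding site. Rb1cc1, Becn1, Pik3c3, Atg12, Atg16l1, Map1lc3a, Ctsb and Npc1 had no window in the table.

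The promoters of 5 of the genes are printed from RefSeq (GRCm38.p6), 5′ to 3′ on the strand of the gene, with CACGTG in capitals and its flanking T and A also in capitals where the longer form is present. Those of Ctsd, Mcoln1 and Atg3 hold the longer form, that of Lamp1 holds the most matches, and that of Ctss, the gene with the largest rise in summed signal, holds none. Ctsd encodes cathepsin D, an aspartyl protease (chr7:142387778-142388077, minus strand). Mcoln1 encodes the lysosomal calcium channel mucolipin 1 (chr8:3500269-3500568, plus strand). Atg3 encodes the enzyme that attaches ATG8 proteins to lipid (chr16:45158579-45158878, plus strand). Lamp1 encodes a major glycoprotein of the lysosomal membrane (chr8:13158911-13159210, plus strand). Ctss encodes cathepsin S, a protease of antigen-presenting cells (chr3:95526536-95526835, plus strand).
Ctsd: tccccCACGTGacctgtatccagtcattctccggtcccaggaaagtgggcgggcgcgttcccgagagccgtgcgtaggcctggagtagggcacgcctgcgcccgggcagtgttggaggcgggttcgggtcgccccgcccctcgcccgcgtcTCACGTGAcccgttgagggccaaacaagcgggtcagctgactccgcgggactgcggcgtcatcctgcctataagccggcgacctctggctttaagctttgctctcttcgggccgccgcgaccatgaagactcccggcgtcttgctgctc
Mcoln1: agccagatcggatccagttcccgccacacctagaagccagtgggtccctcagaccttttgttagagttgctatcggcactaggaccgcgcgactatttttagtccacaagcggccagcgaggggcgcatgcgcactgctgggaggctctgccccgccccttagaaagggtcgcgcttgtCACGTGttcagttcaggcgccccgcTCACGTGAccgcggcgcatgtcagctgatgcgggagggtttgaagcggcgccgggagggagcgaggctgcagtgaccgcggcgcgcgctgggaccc
Atg3: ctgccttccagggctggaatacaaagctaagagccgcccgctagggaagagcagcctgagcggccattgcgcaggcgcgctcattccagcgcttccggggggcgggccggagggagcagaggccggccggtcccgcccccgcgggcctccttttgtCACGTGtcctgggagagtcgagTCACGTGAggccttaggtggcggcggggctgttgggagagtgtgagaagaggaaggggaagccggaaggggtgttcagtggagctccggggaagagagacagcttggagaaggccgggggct
Lamp1: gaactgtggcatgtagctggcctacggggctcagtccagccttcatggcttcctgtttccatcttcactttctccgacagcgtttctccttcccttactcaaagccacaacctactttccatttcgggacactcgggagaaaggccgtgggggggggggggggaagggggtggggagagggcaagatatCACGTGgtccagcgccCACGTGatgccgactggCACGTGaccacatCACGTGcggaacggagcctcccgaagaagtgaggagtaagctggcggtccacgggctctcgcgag
Ctss: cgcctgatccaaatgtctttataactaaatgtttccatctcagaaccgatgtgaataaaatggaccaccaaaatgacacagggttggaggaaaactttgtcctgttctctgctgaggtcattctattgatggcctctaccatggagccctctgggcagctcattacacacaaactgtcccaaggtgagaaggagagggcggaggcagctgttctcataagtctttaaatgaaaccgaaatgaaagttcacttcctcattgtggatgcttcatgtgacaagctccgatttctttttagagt
In Ctsd the first base of the longer form lay 99 bases before the start, in Atg3 72 and in Mcoln1 46. Lamp1 held 4 copies of CACGTG, whose first bases lay 61, 45, 28 and 15 bases before the start. None of the peaks over these 5 starts passed the test described next. The Ctsd start peak had 125, 125 and 87.6 in quiescent cells, against 179, 159 and 152 in proliferating cells. Every quiescent sample lay below every proliferating one, and the log2 fold change of -0.55 ± 0.22 (SE) had a limma adjusted p of 0.163. The Atg3 start peak had 486, 553 and 489 in quiescent cells and 650, 617 and 641 in proliferating cells. These groups did not overlap either, at -0.32 ± 0.13 (limma adjusted p = 0.175). At Mcoln1 the start peak averaged 150 ± 18.7 in quiescent cells and 153 ± 24.3 in proliferating cells (SD, n = 3 each), and at Lamp1 41.9 ± 10.7 in quiescent cells and 37.3 ± 10.4 in proliferating cells. The groups overlapped at both.

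The deposited values are a scaled signal, 1 value per peak and sample, not divided by peak width. Their totals lay between 20904407 and 21518630 a sample, while the reads in peaks that could be recovered from them lay between 8052288 (proliferating sample 1) and 49330942 (proliferating sample 3). Of the 275 peaks, 252 passed the filter that left out the weakest 10% of all peaks, and 23 peaks with a mean signal of 3.87 to 18.4 did not. Each of the 10 B-lineage marker genes looked at, Pax5 and Cd79a among them, had peaks. Their summed signal was 63370 to 67397 in quiescent samples and 60344 to 67917 in proliferating samples. In bulk samples, fewer cells of a type and less open chromatin per cell cannot be told apart.

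Peaks of the group changed in both directions, and about as often as peaks elsewhere in the genome. Of the 252 tested peaks, 18 passed the threshold, a limma adjusted p under 0.05 over all 87411 tested peaks, and 11 of these were higher in quiescent cells and 7 lower. The share was 7.14%, against 6.72% of all tested peaks. By direction, 4.01% of all tested peaks were higher and 2.72% lower. The median log2 fold change, on the log2(signal + 1) scale and taken as quiescent over proliferating, was 0.001 over the group and -0.009 over all tested peaks, and 127 of the 252 peaks (50.4%) were above 0. In 82 peaks (32.5%) the 3 quiescent samples did not overlap the 3 proliferating ones, with 42 higher and 40 lower, beside 30.4% of all tested peaks (15.4% higher and 14.9% lower). The signal summed over all peaks of the group was 51644 to 54171 in quiescent samples and 52766 to 54335 in proliferating samples.

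The number of calls rests on single libraries and on the scaling. When quiescent sample 2 or quiescent sample 3 was left out, none of the 252 peaks passed (49 and 44 at an unadjusted p under 0.05, limma), which holds for each peak named below as having risen or fallen. Leaving out proliferating sample 2 left 3 calls, proliferating sample 3 left 8 and proliferating sample 1 gave 28. With the replicate number as a block, 43 passed, 24 higher and 19 lower, beside 18.3% of all tested peaks. On recovered reads scaled to their totals, limma-voom called 42, with 17 higher and 25 lower, as the median of all tested peaks moved by -0.24. With median-of-ratios scaling it called 36, with 28 higher and 8 lower. Over all 87411 tested peaks it called 12584 with total scaling (35.4% of them higher) and 12074 with median-of-ratios scaling (71.6% higher).

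**Figure D1:**
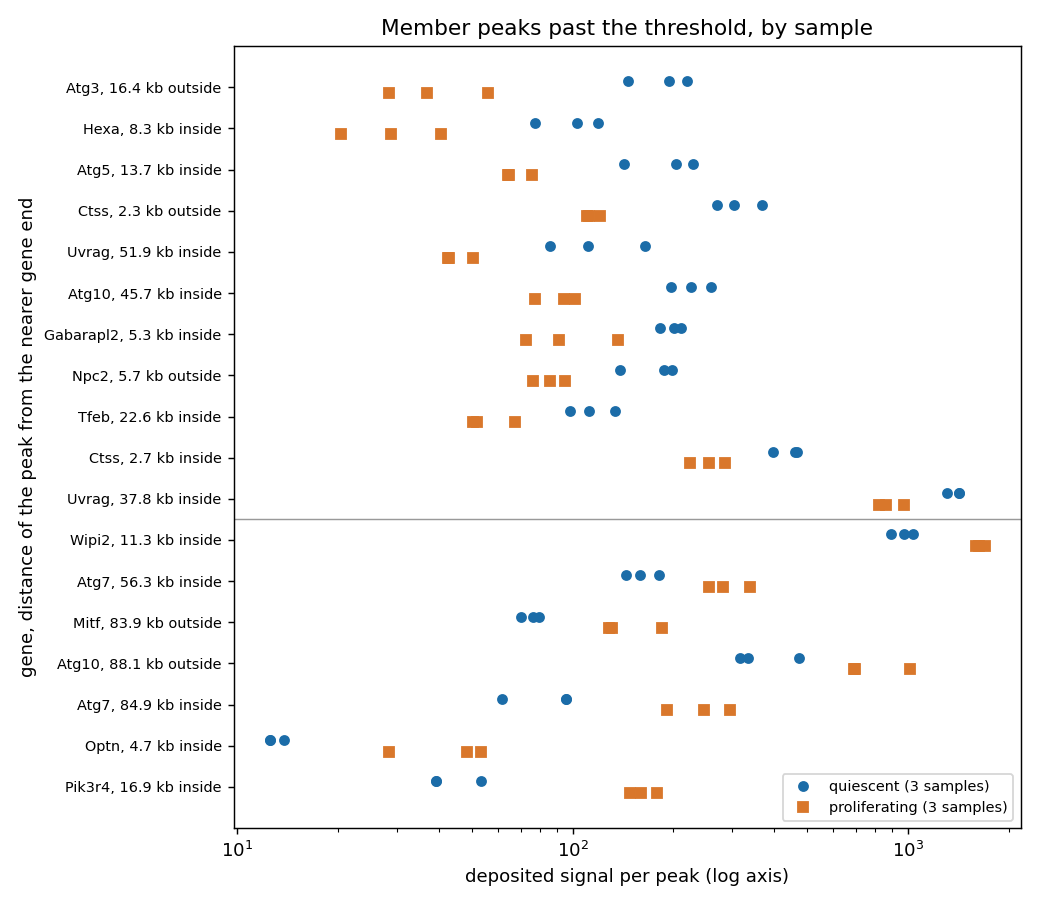
Deposited signal (log axis) of the 18 peaks past the threshold, 1 row per peak, named by gene with the distance in kb from the nearer gene end, inside or outside the gene. Points are samples, 3 quiescent and 3 proliferating. In each row the 2 groups do not overlap, and 11 peaks are higher and 7 lower in quiescent cells.

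The 18 peaks belonged to 14 genes, 8 with higher peaks alone, 5 with lower peaks alone and Atg10 with both, while 26 genes had none. Of these peaks, 13 lay in gene bodies and 5 between genes, 2333 to 88113 bp from the nearer gene end. None overlapped a second gene, and in all 18 the groups did not overlap.

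Within the ULK initiation complex, no peak passed. The complex joins the kinases encoded by Ulk1 and Ulk2 to the scaffolds encoded by Rb1cc1 and Atg13. Of its 17 tested peaks 3 had an unadjusted p under 0.05 in limma, 1 passed with limma-voom on recovered reads under either scaling, lower with total and higher with median-of-ratios scaling, and 2, both in Rb1cc1 and both lower, passed with the replicate block. Log2 fold changes in the complex ran from -1.20 to 0.62.

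The class III phosphatidylinositol 3-kinase complexes had 42 tested peaks, of which 2 rose and 1 fell in quiescent cells. Pik3r4 encodes VPS15, the regulatory subunit that holds the lipid kinase in its complexes. A peak in its body (chr9:105659846-105660350) had 39.2, 39.0 and 53.2 in quiescent cells, against 179, 161 and 148 in proliferating cells. The highest quiescent sample was well below the lowest proliferating one, and the peak fell by 1.88 ± 0.23 on the log2 scale (limma adjusted p = 0.00757). It lay 16851 bp from the listed start. The start peak of Pik3r4 itself averaged 104 ± 16.8 in quiescent cells and 103 ± 6.92 in proliferating cells (SD, n = 3 each). Uvrag encodes a beclin 1 partner that acts in autophagosome maturation and endosome traffic, and a pair of its peaks rose. The stronger one (chr7:99101047-99103336) had 1418, 1423 and 1306 in quiescent cells, against 976, 862 and 821 in proliferating cells. All quiescent samples were higher, by a log2 fold change of 0.64 ± 0.12 (limma adjusted p = 0.0197), which became 1.02 with median-of-ratios scaling. The weaker one (chr7:99088881-99089278) had 164, 111 and 85.3 in quiescent cells and 50.3, 42.4 and 42.9 in proliferating cells. Quiescent sample 1 was the highest and the groups did not overlap (1.34 ± 0.28, limma adjusted p = 0.0282). No peak of Becn1, Pik3c3 or Atg14, which encode beclin 1, the lipid kinase VPS34 and the subunit that sends the complex to autophagosome sites, passed. Fitted with the replicate block, 1 Pik3c3 peak did (0.73, limma adjusted p = 0.0121), and the class had 4 higher and 3 lower peaks. On recovered reads it had 4 higher and 3 lower with total scaling, and 7 higher and 1 lower with median-of-ratios scaling.

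Among the genes for membrane supply and for proteins that read the lipid PI3P, 1 of 22 tested peaks passed. Wipi2 encodes a PI3P-binding protein that brings the conjugation machinery to the growing membrane. A strong peak in its body (chr5:142640853-142642964) had 889, 974 and 1036 in quiescent cells, against 1637, 1698 and 1595 in proliferating cells. The samples of each group lay close together, and the peak fell by 0.77 ± 0.11 on the log2 scale (limma adjusted p = 0.0106). The change was -0.42 with median-of-ratios scaling, still past the threshold. The peak at the start of Wipi2 averaged 85.5 ± 3.82 in quiescent cells and 92.4 ± 13.3 in proliferating cells (SD, n = 3 each), with overlapping groups. A weak peak in Atg9a, which encodes a lipid scramblase of autophagy vesicles, had 46.9, 40.7 and 44.4 in quiescent cells and 2.19, 16.7 and 17.8 in proliferating cells. All quiescent samples were higher, and the log2 fold change of 2.14 ± 0.66 did not pass (limma adjusted p = 0.0856, and 0.0204 with the replicate block). It was chosen for mention after its values were seen. No peak of Atg2a, Atg2b or Wipi1 passed, and with the replicate block a pair of Wipi1 peaks did, 1 higher (0.67, limma adjusted p = 0.0316) and 1 lower (-0.93, limma adjusted p = 0.0109). On recovered reads the class had 1 higher and 3 lower peaks with total scaling, and 1 of each with median-of-ratios scaling.

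The conjugation genes had the most peaks, 69 tested, of which 3 rose and 3 fell. On recovered reads 5 were higher and 9 lower with total scaling, and 7 higher and 2 lower with median-of-ratios scaling, while the replicate block gave 6 higher and 7 lower. Atg7 encodes the E1-like enzyme that activates ATG12 and ATG8 proteins, and a pair of peaks deep in its body fell. One (chr6:114775028-114775698) had 61.5, 95.3 and 95.4 in quiescent cells, against 247, 296 and 191 in proliferating cells. The groups were separated by more than the quiescent samples differed among themselves, and the change was -1.53 ± 0.25 (limma adjusted p = 0.0138). The other (chr6:114803280-114804310) had 181, 145 and 159 in quiescent cells and 339, 282 and 256 in proliferating cells. The groups did not overlap (-0.85 ± 0.19, limma adjusted p = 0.0325), and with median-of-ratios scaling the adjusted p was 0.0512.

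Atg10, which encodes the E2-like enzyme that joins ATG12 to ATG5, had called peaks in opposite directions. The peak that rose (chr13:90981018-90982001), inside the gene, had 258, 197 and 225 in quiescent cells, against 102, 77.2 and 94.0 in proliferating cells. All quiescent samples were above all proliferating ones (1.31 ± 0.21, limma adjusted p = 0.0124). The peak that fell (chr13:91312838-91313668) lay in the space beyond Atg10, 88113 bp from its nearer end, and had 474, 335 and 315 in quiescent cells and 1013, 691 and 697 in proliferating cells. Sample 1 was the highest of each group, and the groups did not overlap (-1.09 ± 0.21, limma adjusted p = 0.0219). With median-of-ratios scaling it was -0.72 with an adjusted p of 0.0607. Atg5 encodes the protein that joins ATG12 in the enzyme complex for ATG8 lipidation. A peak in its body (chr10:44282071-44282803) had 142, 203 and 229 in quiescent cells, against 64.2, 64.4 and 75.8 in proliferating cells. The proliferating samples lay close together below all quiescent ones (1.45 ± 0.24, limma adjusted p = 0.0134).

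The largest rise in the group was near Atg3, the gene for the E2-like enzyme of ATG8 lipidation. A peak 16437 bp outside the gene (chr16:45204975-45205555) had 146, 194 and 220 in quiescent cells, against 56.0, 28.2 and 36.8 in proliferating cells. The lowest quiescent sample was above the highest proliferating one, at a log2 fold change of 2.22 ± 0.30 (limma adjusted p = 0.00861). The Atg3 start peak, with the E-boxes shown above, was on the other side of 0. No peak of Atg12 or Atg16l1, which encode the remaining parts of the lipidation complex, passed.

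Of the 18 tested peaks at genes for the ATG8 proteins themselves, 1 passed. Gabarapl2 encodes GATE-16, an ATG8 protein of autophagosomes and Golgi traffic. A peak in its body (chr8:111946951-111947631) had 183, 210 and 200 in quiescent cells, against 137, 90.9 and 72.8 in proliferating cells. Proliferating sample 1 was the closest to the quiescent samples, and the groups did not overlap (1.02 ± 0.25, limma adjusted p = 0.0455). Map1lc3a, Map1lc3b and Gabarapl1, which encode further ATG8 proteins, had no peak past the threshold. Of the 14 tested peaks of the cargo receptor genes 1 passed. It lay in Optn, which encodes optineurin, a receptor for ubiquitin-tagged mitochondria and bacteria. This weak peak (chr2:5025267-5025495) had 12.5, 13.7 and 12.5 in quiescent cells, against 28.3, 53.3 and 48.3 in proliferating cells. It rested on 8 to 13 recovered reads per quiescent sample and fell by 1.62 ± 0.38 on the log2 scale (limma adjusted p = 0.0383), with no overlap. No peak of Sqstm1, the gene for p62, or of Nbr1 passed. With the replicate block, and on recovered reads under either scaling, the cargo receptor genes had 2 lower peaks and none higher.

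The genes for the MiT transcription factors had 1 peak of 26 higher and 1 lower. On recovered reads 0 were higher and 4 lower with total scaling, against 1 higher and 1 lower with median-of-ratios scaling, and with the replicate block 1 was higher and 2 were lower. Tfeb encodes the main regulator of lysosomal genes. A peak in its body (chr17:47759665-47760342) had 98.1, 112 and 134 in quiescent cells, against 50.4, 52.0 and 67.3 in proliferating cells. No quiescent sample overlapped the proliferating ones, and the peak rose by a log2 fold change of 1.01 ± 0.24 (limma adjusted p = 0.0407). On reads scaled to their totals it was 0.63 with an adjusted p of 0.127. The start peak of Tfeb leaned the other way, with 208, 229 and 230 in quiescent cells and 296, 304 and 351 in proliferating cells. These groups did not overlap, and the change of -0.51 ± 0.16 did not pass (limma adjusted p = 0.0955, and 0.0392 with the replicate block). Mitf encodes a relative of TFEB that also acts in pigment and mast cells. A peak 83852 bp outside the gene (chr6:98105212-98105985) had 70.2, 79.4 and 76.1 in quiescent cells, against 184, 131 and 128 in proliferating cells. All quiescent samples were lower (-0.95 ± 0.22, limma adjusted p = 0.0404). Tfec, for the third factor, had no peak past the threshold.

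The lysosomal genes had 44 tested peaks, and the 4 that passed (9.09%) all rose in quiescent cells. Over all tested peaks 6.72% passed, 4.01% higher and 2.72% lower. Of the 44 peaks 26 were above 0, and at gene ends 6 of 16 were (37.5%, beside 39.5% of all tested gene-end peaks). On recovered reads 6 lysosomal peaks rose and 2 fell with total scaling, and 10 rose with median-of-ratios scaling. With the replicate block 10 rose and 1 fell. A pair of the 4 peaks that passed in the main fit belonged to Ctss. The peak 2333 bp before its start (chr3:95523264-95524453) had 303, 368 and 270 in quiescent cells, against 110, 112 and 121 in proliferating cells. The proliferating samples were nearly equal and far below the quiescent ones, at a log2 fold change of 1.44 ± 0.19 (limma adjusted p = 0.0082). The peak 2686 bp after the start (chr3:95529472-95530337) had 396, 468 and 462 in quiescent cells and 286, 225 and 255 in proliferating cells. Here too the quiescent samples were all higher (0.79 ± 0.16, limma adjusted p = 0.0269). Between these lay the Ctss start peak, with 474, 585 and 590 in quiescent cells and 370, 422 and 434 in proliferating cells. It was also higher in all quiescent samples, and its change of 0.42 ± 0.15 did not pass (limma adjusted p = 0.135, and 0.041 with the replicate block).

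Hexa encodes the alpha subunit of beta-hexosaminidase, which breaks down gangliosides. A peak in its body (chr9:59547821-59548252) had 119, 103 and 77.3 in quiescent cells, against 28.6, 20.4 and 40.6 in proliferating cells. It rested on 11 recovered reads in proliferating sample 1, and the groups did not overlap (1.74 ± 0.32, limma adjusted p = 0.0192). All 6 tested peaks in the body of Hexa had a log2 fold change above 0, from 0.36 to 1.74. The 2 tested Hexa peaks between genes were below 0, at -0.23 and -0.006. Npc2 encodes a cholesterol carrier of the lysosome. A peak 5731 bp outside the gene (chr12:84748146-84748828) had 139, 188 and 199 in quiescent cells, against 85.6, 76.1 and 94.7 in proliferating cells. Each quiescent sample was above each proliferating one (1.01 ± 0.22, limma adjusted p = 0.0311), and on reads scaled to their totals the adjusted p was 0.0633. The other lysosomal genes, Lamp1, Ctsb, Ctsd, Ctsl, Ctsz, Npc1 and Mcoln1, had no single peak past the threshold. In the fit with the replicate block a pair of Ctsb peaks passed (adjusted p of 0.013 and 0.00125, limma) and 1 Npc1 peak did (0.83, limma adjusted p = 0.0134), all higher.

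Several of these lysosomal proteins are also abundant in macrophages, and markers of myeloid cells moved in the same samples. Of 15 myeloid marker genes, 13 had a peak and 12 were tested on summed signal, and 3 rose in quiescent cells (Csf1r, Adgre1 and Cd68). Not all leaned that way: Csf3r, the receptor for granulocyte growth factor, had a log2 fold change of -0.54 ± 0.15 that did not pass (limma adjusted p = 0.0676), with all quiescent samples lower, and Mertk and Cebpb were at -0.43 and -0.15. On recovered reads 3 of the 12 were higher and 2 lower with total scaling, and 5 higher and 1 lower with median-of-ratios scaling. Csf1r, the receptor for macrophage growth factor, had the largest change of these, 0.97 ± 0.15 (limma adjusted p = 0.012). The summed signal of the myeloid list was 20168 to 22205 in quiescent samples and 18505 to 20717 in proliferating samples, so the groups overlapped. No peak was assigned to Elane or Mpo. Among markers of plasmacytoid dendritic and plasma cells, Siglech and Jchain rose (2 of 6), and the list summed to 38179 to 38283 in quiescent samples and 34144 to 34736 in proliferating samples. The rest of that list did not pass. Sdc1, Prdm1 and Bst2 had log2 fold changes of 0.80, 0.13 and 0.05, and Tcf4 leaned the other way at -0.11. Of the T and NK list 1 of 5 tested genes rose (Ncr1). None of the 10 B-lineage genes passed on summed signal in limma (3 at an unadjusted p under 0.05; with limma-voom none with total scaling and 2 with median-of-ratios scaling), while with the replicate block 1 was higher and 2 were lower. The part of such cells in the changes at Ctss, Ctsb, Hexa and Npc2 was not tested.

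Called peaks of the group all lay more than 1 kb from gene ends. With the cut at 3 kb, 2 of 90 tested gene-end peaks of the group passed, both higher. The share over all peaks within 3 kb of a gene end was not computed. Within 1 kb of either gene end, 0 of 61 tested peaks passed in limma, beside 2.79% of all 15630 such peaks, and 7 had an unadjusted p under 0.05. With limma-voom on recovered reads, 4 passed with total scaling, all lower, and 2 with median-of-ratios scaling, both higher. With the replicate block 3 passed, in Ctss (higher), Tfeb and Uvrag (both lower), and without proliferating sample 1 a single peak did. Of the peaks farther out, 18 of 191 passed (9.42%), beside 7.58% of all such peaks. The median log2 fold change at gene ends was -0.08 in the group and -0.08 over all gene ends, and farther out it was 0.05 in the group and 0.02 over all such peaks. The median size of change, without its sign, was 0.20 at gene ends and 0.39 farther out in the group.

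**Figure D2:**
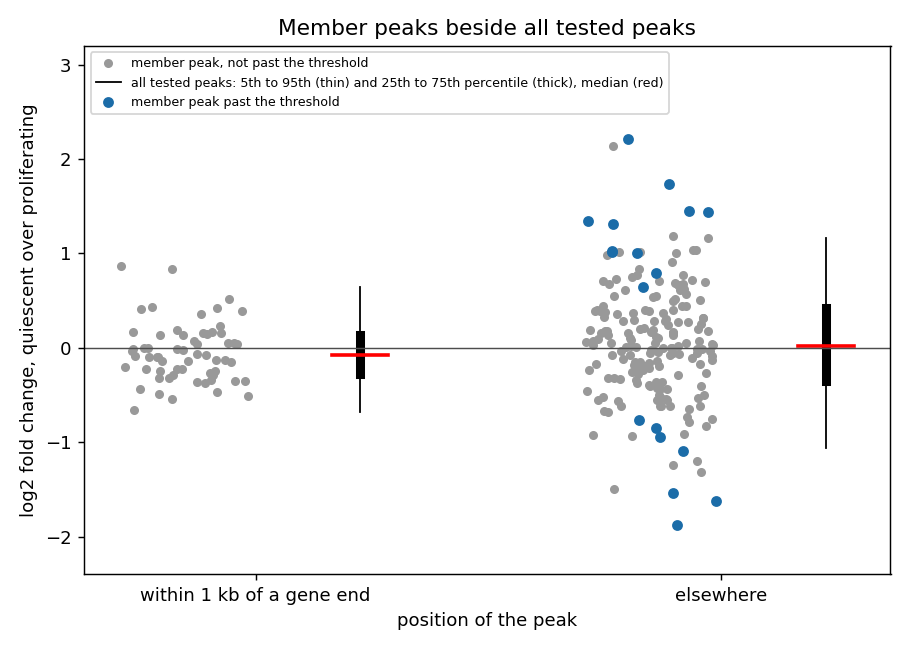
Log2 fold change (quiescent over proliferating) of each tested peak of the group, split into 61 peaks within 1 kb of a gene end and 191 elsewhere, beside percentiles of all tested peaks in the same class. No gene-end peak is past the threshold, and the spread is wider away from gene ends in the group and over all peaks.

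Across the 38 genes with a gene-end peak, the strongest such peak leaned lower in quiescent cells in 27 and higher in 11, with none past the threshold. The log2 fold changes ran from -0.55 (Ctsd) to 0.42 (Ctss), and the smallest limma adjusted p was 0.0955 (Tfeb). In 29 genes the groups overlapped. They did not in Ctss and Ulk2, which were higher, and in Atg3, Npc1, Atg14, Atg2b, Tfeb, Atg7 and Ctsd, which were lower. Gene-end peaks in general leaned the same way. Of all 15630 tested ones, 39.5% were above 0, beside 39.3% of the 61 in the group. The groups did not overlap in 1264 higher and 2601 lower ones of the 15630. Pik3c3 and Tfec had no peak at a gene end. The gene-end peaks held 30.3% of the signal of the group.

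Uvrag, Atg7 and Atg10 held the most peaks, and these lay on both sides of 0. In Uvrag 13 of 26 tested peaks were above 0 and 13 below, and in Atg7 12 of 27 were above 0 and 15 below. Atg10 differed between its body and its flank. In the body 6 of 9 tested peaks were above 0, while all 8 tested peaks between genes were below 0, from -1.09 to -0.04. Its summed signal of 5835, 4957 and 4946 in quiescent cells overlapped the 7362, 5284 and 5253 in proliferating cells.

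**Figure D3:**
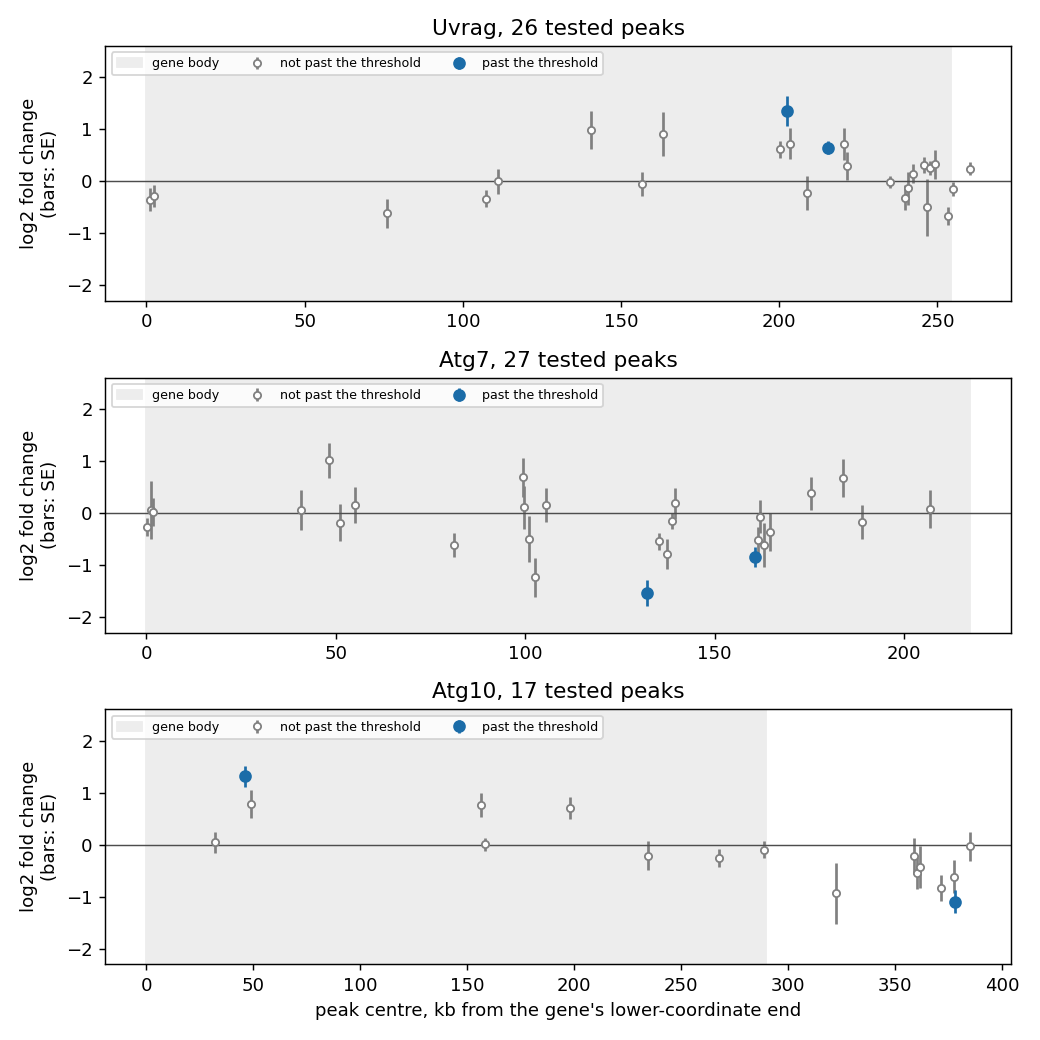
Log2 fold change (quiescent over proliferating, bars show SE) of every tested peak of the 3 genes with the most peaks, against the distance in kb of the peak centre from the lower-coordinate end of the gene, with the gene body shaded. Uvrag, Atg7 and Atg10 each hold peaks on both sides of 0, and the Atg10 peaks beyond the gene lie below 0.

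When all peaks of a gene were summed per sample, 4 of 39 tested genes passed, 2 higher and 2 lower in quiescent cells. That is 10.3%, beside 7.62% of all 14248 tested genes (3.94% higher and 3.68% lower), with Becn1 too weak to be tested. Ctss summed to 1404, 1667 and 1594 in quiescent cells, against 921, 937 and 1010 in proliferating cells. All quiescent samples were higher, by a log2 fold change of 0.70 ± 0.11 (limma adjusted p = 0.0115), and all 5 tested peaks of the gene lay above 0. Ctsb, for the protease cathepsin B, summed to 1431, 1280 and 1416 in quiescent cells and 1123, 753 and 788 in proliferating cells. Proliferating sample 1 was the closest to the quiescent samples, and the sum rose by 0.65 ± 0.16 (limma adjusted p = 0.0428). Its largest changes were 1.04 ± 0.27 in a peak 17743 bp outside the gene (limma adjusted p = 0.0521) and 1.02 ± 0.28 in a peak of the body (0.0606), while its gene-end peak was at -0.34 ± 0.25.

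Wipi2 and Pik3r4 had the largest falls in summed signal. Wipi2 summed to 1045, 1150 and 1224 in quiescent cells, against 1764, 1874 and 1764 in proliferating cells. The groups did not overlap (-0.66 ± 0.10, limma adjusted p = 0.0111), and with median-of-ratios scaling the change was -0.38. Pik3r4 summed to 639, 842 and 775 in quiescent cells and 1242, 1160 and 1006 in proliferating cells. All quiescent samples were lower (-0.60 ± 0.14, limma adjusted p = 0.0375), and with median-of-ratios scaling it was -0.36 with an adjusted p of 0.0967. Most of the Wipi2 sum came from the single body peak described above.

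**Figure D4:**
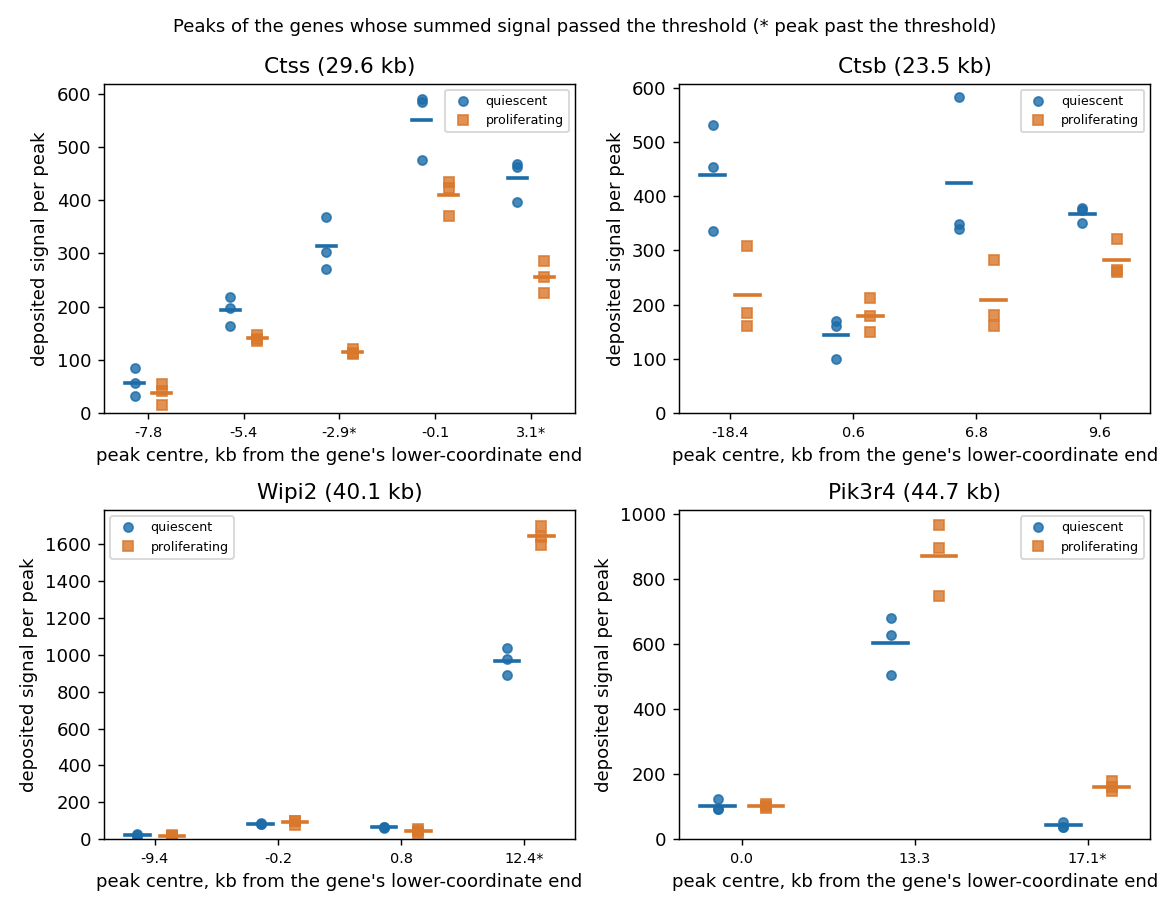
Deposited signal of each peak of Ctss, Ctsb, Wipi2 and Pik3r4 in 3 quiescent and 3 proliferating samples (points; short lines show means), ordered by the distance in kb of the peak centre from the lower-coordinate end of the gene. Quiescent samples are higher over the Ctss and most Ctsb peaks, and lower in 1 strong Wipi2 peak and in 2 of the 3 Pik3r4 peaks.

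The log2 fold change of summed signal was above 0 in 19 genes and below 0 in 20. The groups did not overlap in 13 of the 39 genes (33.3%), 6 higher and 7 lower, beside 31.2% of all tested genes. With the replicate block 11 genes passed, beside 21.5% of all genes. The added genes were Uvrag, Gabarapl2 and Hexa, which were higher, and Rb1cc1, Atg2b, Atg7 and Optn, which were lower. Leaving out quiescent sample 1 left 2 genes and proliferating sample 3 left 1. Leaving out quiescent sample 2, quiescent sample 3 or proliferating sample 2 left 0 (8, 9 and 7 at an unadjusted p under 0.05, limma). On recovered reads limma-voom called 8 genes with either scaling. With total scaling 2 were higher and 6 lower, and with median-of-ratios scaling 7 were higher and 1 lower. Over all 14248 tested genes it called 2867 with total scaling (26.5% of them higher) and 2881 with median-of-ratios scaling (77% higher).

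**Figure D5:**
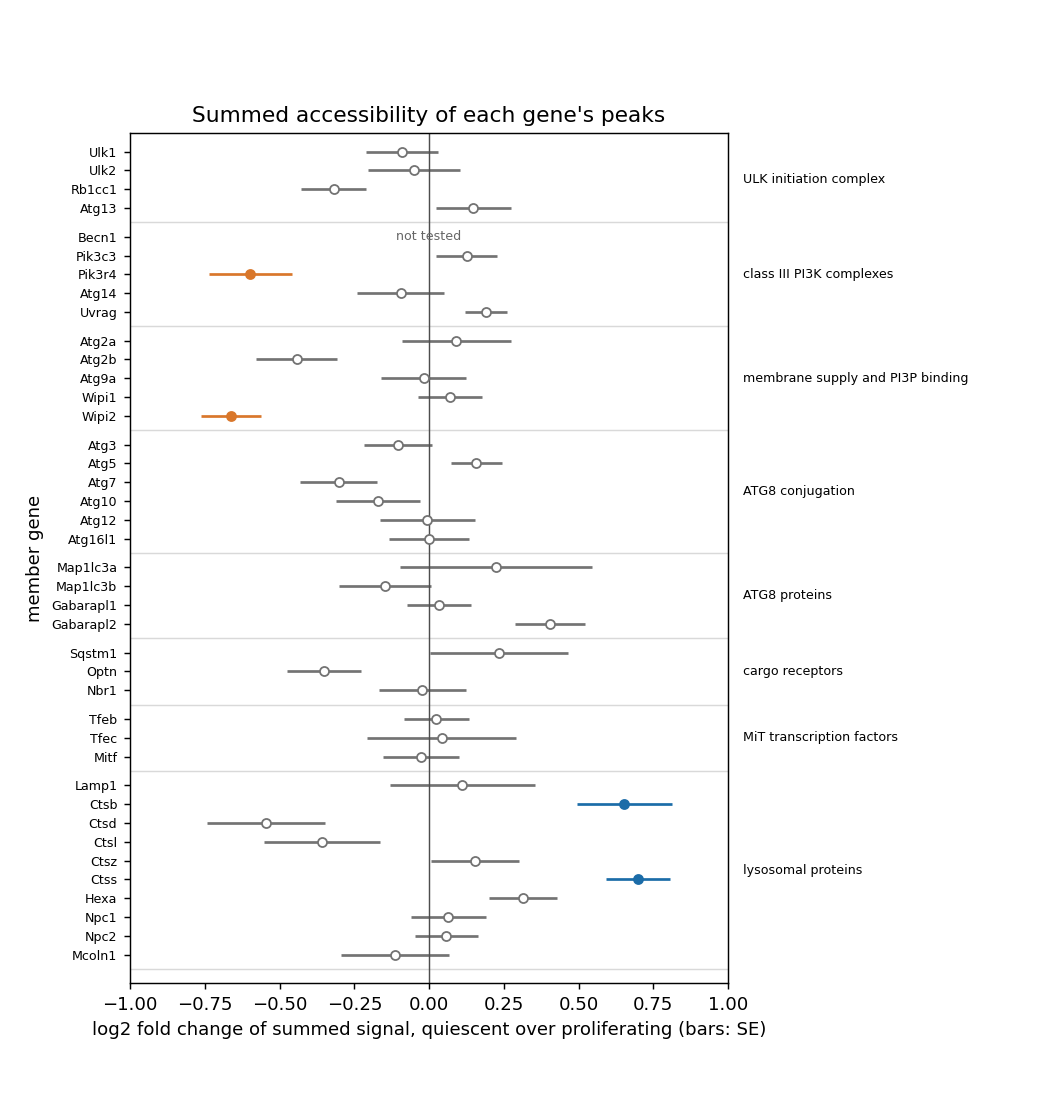
Log2 fold change of summed signal (quiescent over proliferating, bars show SE) of the 39 tested genes, grouped by role. Ctss and Ctsb are past the threshold on the higher side, Wipi2 and Pik3r4 on the lower side, and 19 genes lie above 0 and 20 below.

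Other genes of the pathway, 83 in all and none of them among the 40, were read from the same fits. Of these, 76 had a peak, and 21 of 400 tested peaks passed (5.25%, beside 6.72% of all tested peaks), 15 higher and 6 lower in quiescent cells. This balance depended on the scaling, with 24 higher and 30 lower on recovered reads scaled to their totals and 44 higher and 13 lower with median-of-ratios scaling. The higher ones included 3 peaks near Atp6v0a1 and a pair in Atp6v0d1, genes for subunits of the proton pump that acidifies the lysosome. The strongest of the Atp6v0a1 peaks averaged 753 ± 176 in quiescent cells and 285 ± 101 in proliferating cells (SD, n = 3 each), a log2 fold change of 1.44 ± 0.29 (limma adjusted p = 0.0254). Peaks at the protease genes Ctsh (1.02), Lgmn (1.17) and Ctsc (1.32 and 1.39) also rose, with log2 fold changes in parentheses. The lower ones included peaks at Calcoco1 (-1.94), a gene related to a cargo receptor, at Rubcn (-1.41), which encodes the autophagy inhibitor rubicon, and at Ctso (-0.68), another cathepsin gene. On summed signal 0 of 75 tested genes rose and 2 fell in limma (16 at an unadjusted p under 0.05), while limma-voom called 5 higher and 3 lower with total scaling and 16 higher and 0 lower with median-of-ratios scaling. Atg16l2, a relative of Atg16l1, fell by 0.58 ± 0.12 (limma adjusted p = 0.0265), and Snap29, for a SNARE of autophagosome fusion, fell by 0.40 ± 0.09 (limma adjusted p = 0.0397). No gene of this list passed on summed signal once quiescent sample 2 or 3 or proliferating sample 2 or 3 was left out, 8 passed once proliferating sample 1 was, and 16 passed with the replicate block (11 higher, 5 lower). Of its peaks, leaving out quiescent sample 3 left 0 (67 at an unadjusted p under 0.05, limma), quiescent sample 2 left 1, proliferating sample 2 left 1, proliferating sample 3 left 3 and proliferating sample 1 gave 33. With the replicate block 66 passed, 36 higher and 30 lower.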

How the data were processed

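ATAC-seq was measured in 3 quiescent and 3 proliferating samples. Bowtie2, SAMtools, MACS2 and the genome build mm10 were used per the submitters' processing notes, and no version, counting step or scaling is stated in the labels used here. The authors deposited a scaled signal per peak and sample for a single list of 97124 peaks, so replicates share peak borders. A count test had been planned first, and its planned substitute for a normalized signal was used. That was limma 3.58.1 (R 4.3.3) on log2(signal + 1) with a trend of the variance on mean signal, over the 87411 peaks above the lowest 10% by mean (a cutoff of 18.5), with Benjamini-Hochberg adjusted p-values and a threshold of 0.05. Fold changes on this scale understate the change of weak peaks.

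Peaks were assigned within 100 kb from RefSeq genes (GRCm38.p6, the mm10 assembly), and all 40 symbols matched. Gene ends took 1 kb on either side. Peaks of a gene were summed per sample and 14248 genes tested the same way. Reads behind the values were recovered from the regular steps in low values, and 94.4% to 99.7% of values per sample came out within 0.1 of a whole number. They were tested with limma-voom as an alternative. The recovered steps changed with the strength of a peak, so the authors' scaling was inferred to do so too. The recovery and the limma fit were tested on simulated data. Scripts ran in Python 3.11.15 (numpy 2.4.6; pandas 2.3.3; figures by matplotlib 3.10.9).

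The members and gene lists were chosen with earlier results of these data known. The text names every member peak and gene past the threshold, and gives the strongest gene-end peaks of the genes by their range and counts, with values for some. Samples with the same replicate number deviated together from their group means (correlations of 0.43, 0.285 and 0.21 over tested peaks). By the rule used the numbers pair the samples, although the labels do not say what a number marks. Unlike numbers also went together in quiescent sample 2 with proliferating sample 3 (0.22) and quiescent sample 3 with proliferating sample 2 (0.146). The remaining unlike pairs were negative (-0.361 to -0.212). The correlations therefore do not show that numbers 2 and 3 pair the samples, and the replicate block rests on that pairing. The fit without the block is the main one. Other alternatives were a pseudocount of 5, no filter, quantile normalization, leaving out each sample, gene bodies alone and gene ends within 3 kb.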

Additional observations from a re-analysis of the deposited data

How the results depend on the processing

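Counts of calls were within 1.5 times those reported with a pseudocount of 5, no filter on low values, quantile normalization and gene bodies alone. Larger moves came with limma-voom on recovered reads, the replicate block and leaving out 1 sample, and the cause was not tested. With total scaling, median-of-ratios scaling and the replicate block, in that order, calls numbered 12584, 12074 and 15999 over all peaks, 42, 36 and 43 over member peaks, 4, 2 and 3 over member gene-end peaks, 54, 57 and 66 over peaks of other pathway genes, 2867, 2881 and 3059 over all genes, 8, 8 and 11 over member genes, and 8, 16 and 16 over other pathway genes. Of all peak calls, 59.6% were higher in quiescent cells in the main result, 35.4% with total scaling and 71.6% with median-of-ratios scaling. Leaving out each sample in turn gave 0 to 8241 calls over all peaks (16512 peaks kept an unadjusted p under 0.05, limma, where 0 passed), 0 to 28 over member peaks, 0 to 1 over member gene-end peaks, 0 to 33 over peaks of other pathway genes, 86 to 1887 over all genes, 0 to 6 over member genes and 0 to 8 over other pathway genes. Gene ends within 3 kb held 2 called member peaks of 90, both higher, with no share over all such peaks computed. The 18 named peaks and 4 named genes kept their direction under each alternative run, and with the block all 22 stayed past the threshold, so it ended no call.

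The shallowest library had 8052288 reads in peaks, a median of 27 per peak, so changes in weak peaks were not detectable with the precision of strong ones. Peaks below the filter, the sequence under distant peaks, gene expression and autophagic activity were not analysed here.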
